A study of Mus musculus with 9 samples.

Results

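The clustered protocadherins are the genes whose symbols start with Pcdha, Pcdhb or Pcdhg, which lie next to each other on mouse chromosome 18, from the start of Pcdha1 at 36930285 to the end of Pcdhgc3 at 37841873 of build mm10. The annotation lists 58 of them, 14 in the Pcdha cluster, 22 in the Pcdhb cluster and 22 in the Pcdhg cluster, and all were taken. The 58 include Pcdhgb8, listed as a transcribed pseudogene, and the annotation lists 21900 protein-coding genes in all. Of 1096949 CpGs read at least 1 time in each of the 9 libraries, 665 lay in the interval of 1 Mb that holds the clusters. Of those, 547 lay within 1 kb of a variable exon (137 in Pcdha, 94 in Pcdhb and 316 in Pcdhg), and the remaining 118 lay in the space between. The annotation used here gives no exons, so a variable exon was taken as the listed span of a Pcdhb gene and as the 2500 bases from the listed start of a Pcdha or Pcdhg gene.

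The assay was reduced representation bisulfite sequencing (RRBS) of DNA, in which a restriction digest enriches CpG-rich fragments and bisulfite conversion leaves only methylated cytosines reading as C. All libraries came from Abl.1, a clonal line of immortalised female B cells from a 129S1/SvImJ x CAST/EiJ F1 mouse. Cells were grown to Day 2 with the solvent alone (1% DMSO, 2 libraries) or with the drug 5-aza-dC, a deoxycytidine analogue, at 0.2 µM (2 libraries), 2 µM (3 libraries) or 10 µM (2 libraries), and dead cells were removed by density centrifugation. The drug is built into replicating DNA and traps DNA methyltransferases there. Because Abl.1 is 1 clone and replicates are described only as separate library preparations, p-values below measure only the spread between these libraries, which may be technical. The deposited values hold no gene expression and do not separate the 129S1/SvImJ and CAST/EiJ alleles, so neither the B cell label nor the state of each allele could be checked.

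Clustered protocadherins are cadherin-type cell surface proteins, best known from neurons, where each cell uses a small set of them as a recognition label. Each variable exon has its own promoter, and in the Pcdha and Pcdhg clusters that exon is spliced to constant exons shared by the whole cluster, whereas each Pcdhb gene is a lone exon. Most of these promoters are chosen at random on either chromosome, and promoters that are not chosen carry DNA methylation. The C-type members (Pcdhac1, Pcdhac2, Pcdhgc3, Pcdhgc4 and Pcdhgc5), at the downstream ends of their clusters, are regulated differently and are used more broadly.

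The libraries held between 8590777 and 16495423 reads at CpGs, and the median CpG had 3 to 5 of them. Coverage inside the clusters was correspondingly thin, with 527 to 1238 reads per library over the Pcdha CpGs, 297 to 823 over the Pcdhb CpGs and 1183 to 2545 over the Pcdhg CpGs. No CpG was read in all libraries at 12 members, which were Pcdha6, Pcdha9, Pcdha10, Pcdha11, Pcdhb4, Pcdhb6, Pcdhb8, Pcdhb9, Pcdhb11, Pcdhb14, Pcdhb20 and Pcdhb21. The other 46 members had at least 1 such CpG, including all 22 of Pcdhg. A level from 10 reads with 5 methylated has a 95% Wilson interval of 23.7% to 76.3%, which covers counting error only. Whether copies of the same molecule were removed from the deposited counts is not stated.

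All 3 clusters were highly methylated in DMSO. Their mean levels were lowest at 0.2 µM and less depleted at 2 and 10 µM, though in Pcdhg the 0.2 and 2 µM libraries overlapped. The level of a library is the unweighted mean over the CpGs of a set. At the Pcdha exons the DMSO libraries held 76.0% and 78.6%, the 0.2 µM libraries 39.5% and 40.6%, the 2 µM libraries 46.5%, 56.1% and 48.0%, and the 10 µM libraries 59.5% and 68.2%. The Pcdhb exons held 75.4% and 75.3% in DMSO, 33.8% and 29.8% with 0.2 µM, 42.8%, 48.7% and 49.9% with 2 µM, and 62.1% and 68.8% with 10 µM. At the Pcdhg exons the values were 78.1% and 79.3% in DMSO, 44.5% and 41.6% with 0.2 µM, 48.2%, 44.3% and 49.4% with 2 µM, and 65.8% and 68.5% with 10 µM. Weighted by reads, the changes from DMSO in Pcdhg were smaller, at -23.0, -19.2 and -2.66 points for the rising doses against -35.6, -31.4 and -11.6 unweighted, and with at least 5 reads per CpG (45 CpGs) they were -15.4, -21.7 and -13.6. Pcdhb with at least 5 reads per CpG (11 CpGs) had -21.7 at 10 µM against -9.89, and within 1 kb of the start (38 CpGs) -2.07. In DMSO replicate 1, 848 of the 2038 Pcdhg reads lay at Pcdhgc3, whose exon averaged 41.5% in DMSO. In every cluster each treated library lay below both DMSO libraries, and no groups overlapped except those at 0.2 and 2 µM in Pcdhg.

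The group means for Pcdha were 77.3% ± 1.84 (SD, n = 2) in DMSO, 40.02% ± 0.805 (n = 2) with 0.2 µM, 50.2% ± 5.15 (n = 3) with 2 µM and 63.8% ± 6.12 (n = 2) with 10 µM. The level differed between the 4 groups by an exact permutation test that enumerated the 7560 ways to assign libraries to groups and used the between-group sum of squares, with p = 0.00238 for Pcdha, 0.000794 for Pcdhb (the smallest p this design can give) and 0.00238 for Pcdhg. After Benjamini-Hochberg adjustment over the 3 clusters and the space between, these exact permutation values were 0.00238, 0.00159 and 0.00238. Single pairs of groups could not pass 0.05, since the exact two-sided permutation test cannot go below 0.333 for 2 libraries against 2 or 0.2 for 3 against 2. With at least 10 reads demanded at each CpG in each library, only 4 Pcdha, 9 Pcdhg and no Pcdhb CpGs were left, the permutation p rose to 0.0960 for Pcdha and 0.0524 for Pcdhg, and in Pcdha the direction against DMSO was not kept at every dose.

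**Figure D1:**
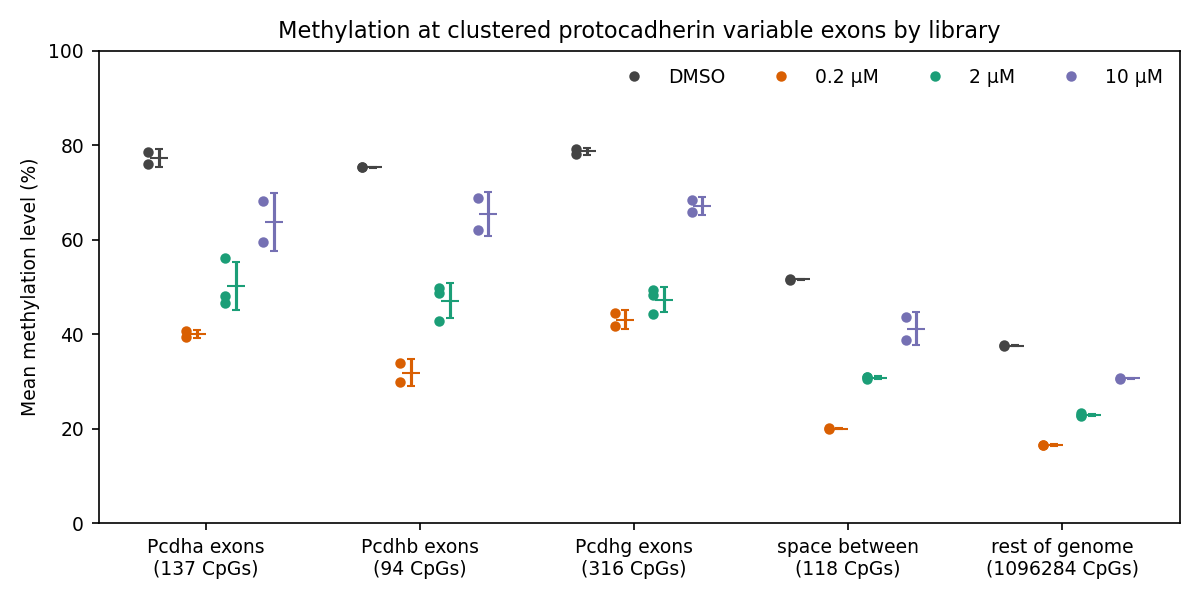
Mean methylation level in percent (vertical axis) of each library (points, coloured by group) at the variable exons of the 3 clusters, in the space between them and in the rest of the genome, with the number of CpGs under each set. Horizontal marks are group means and vertical bars are SD. In Pcdhb the means are 75.3% in DMSO, 31.8% with 0.2 µM, 47.1% with 2 µM and 65.4% with 10 µM, and each set in the plot has the same order of doses.

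Compared by dose, the means of the 3 clusters followed the same order, with the widest gap between them at 0.2 µM. The remaining methylation at 0.2 µM, as a share of the DMSO level, was 51.8% in Pcdha, 42.2% in Pcdhb and 54.8% in Pcdhg. At 2 µM the remaining shares were 64.9%, 62.5% and 60.1%, and at 10 µM 82.6%, 86.9% and 85.3%. The gap between Pcdhb and Pcdhg was widest at 0.2 µM, where Pcdhb was lower (mean difference -11.3 percentage points, -10.7 and -11.8 in the 2 libraries), against -3.36 in DMSO, -0.187 at 2 µM and -1.69 at 10 µM. That gap did not differ between the groups past the threshold (exact permutation p = 0.0714, adjusted 0.214 over the 3 pairs of clusters), nor did those of Pcdha against Pcdhb (0.172, adjusted 0.258) and Pcdha against Pcdhg (0.662, adjusted 0.662). The Pcdhb against Pcdhg difference did pass, by the unadjusted exact permutation p, when CpGs were weighted by reads (0.00952), when only CpGs within 1 kb of a gene start were used (0.00476) and without 2 µM replicate 1 (0.0286). A p that misses the threshold does not show that the clusters responded alike, and at 2 µM the difference of Pcdhb and Pcdhg ran from -5.43 to 4.40 points over the 3 libraries.

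Relative to the other 1096284 CpGs, the clusters stood high in every library. The rest of the genome had means of 37.6% in DMSO, 16.6% with 0.2 µM, 22.9% with 2 µM and 30.7% with 10 µM, against 77.8%, 40.4%, 48.0% and 66.0% over all variable exons. The excess of the clusters was 40.2 points ± 0.747 (SD, n = 2) in DMSO, 23.8 ± 1.59 (n = 2) with 0.2 µM, 25.1 ± 0.874 (n = 3) with 2 µM and 35.4 ± 3.33 (n = 2) with 10 µM, and it differed between the groups (exact permutation p = 0.00317). Starting level differed between the sets, since 9.51% of cluster CpGs but 53.3% of the others were under 20% in DMSO. Among CpGs at 80% or above in the pooled DMSO reads, 353 in the clusters and 319265 elsewhere, the clusters held 96.4%, 49.8%, 55.6% and 77.3% and the others 95.5%, 40.1%, 53.6% and 72.5% at the 4 doses in rising order. The choice by DMSO reads holds both sets near the same level in DMSO, so this comparison is given as a description. The clusters exceeded the other highly methylated CpGs by 11.2 and 8.06 points in the 0.2 µM libraries, by -0.154, 2.69 and 3.40 points in the 2 µM libraries and by 1.90 and 7.78 points in the 10 µM libraries.

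Among subfamilies, the C-type means were the lowest in DMSO, and in Pcdhg that mean rested on 1 gene. CpGs of the C-type Pcdhg exons averaged 62.1% ± 0.506 (SD, n = 2) in DMSO and 29.2% ± 3.01 (n = 2) with 0.2 µM, while the Pcdhga exons averaged 85.1% ± 1.56 and 49.4% ± 4.02 and the Pcdhgb exons 87.5% ± 0.219 and 48.7% ± 2.73 (n = 2 each). With 2 µM the Pcdhga exons averaged 49.3% ± 3.53 (n = 3), no higher than with 0.2 µM. The C-type Pcdha exons averaged 70.8% ± 4.31 in DMSO against 85.5% ± 1.25 at the other Pcdha exons (n = 2 each). At 0.2 µM the Pcdha values were 37.9% ± 1.46 and 42.6% ± 0.0108 (n = 2 each), so the C-type and other exons lay closer there than in DMSO. Of the 96 C-type Pcdhg CpGs, 59 belong to Pcdhgc3 and averaged 41.5% ± 3.78 in DMSO, while the other 37, of Pcdhgc4 and Pcdhgc5, averaged 94.8% ± 4.71 (n = 2 each), above Pcdhga and Pcdhgb. Those 37 CpGs averaged 45.1% ± 1.55 (n = 2) with 0.2 µM, 63.7% ± 4.99 (n = 3) with 2 µM and 73.4% ± 13.1 (n = 2) with 10 µM. Without Pcdhgc3 the whole Pcdhg cluster averaged 87.2% in DMSO and 48.6% with 0.2 µM.

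Methylation near the gene start was low in DMSO at a few genes. Upstream of the start the cluster means were below those in the exon, with 29.4% ± 4.64 (SD, n = 2) over 5 CpGs against 77.9% ± 0.191 over 89 CpGs in Pcdhb, and 38.7% ± 8.87 over 16 CpGs against 79.8% ± 1.36 over 281 CpGs in Pcdhg. In Pcdhg, 8 of the 16 upstream CpGs belong to Pcdhgc3, and the other 8 averaged 76.3% ± 19.5 (n = 2) in DMSO, a gap to the exon level smaller than their own SD. The 20 upstream Pcdha CpGs, all near Pcdhac1, averaged 63.2% ± 3.496 in DMSO. In the first 500 bases of the Pcdhb genes the mean was 40.2% in DMSO and 11.1% with 0.2 µM over 17 CpGs, of which 9 belong to Pcdhb1. The other 8 averaged 75.5% ± 9.97 in DMSO and 19.5% ± 3.38 with 0.2 µM (n = 2 each), and the next 500 bases of the cluster 85.9% and 28.3%. The first 500 bases of the Pcdhg genes averaged 72.9% in DMSO, and 87.6% ± 0.118 (n = 2) without the 25 CpGs of Pcdhgc3. The upstream levels did not differ between the groups past the threshold in Pcdhb (exact permutation p = 0.587) or Pcdhg (0.105), where few CpGs were read, and did in Pcdha (0.0254).

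**Figure D2:**
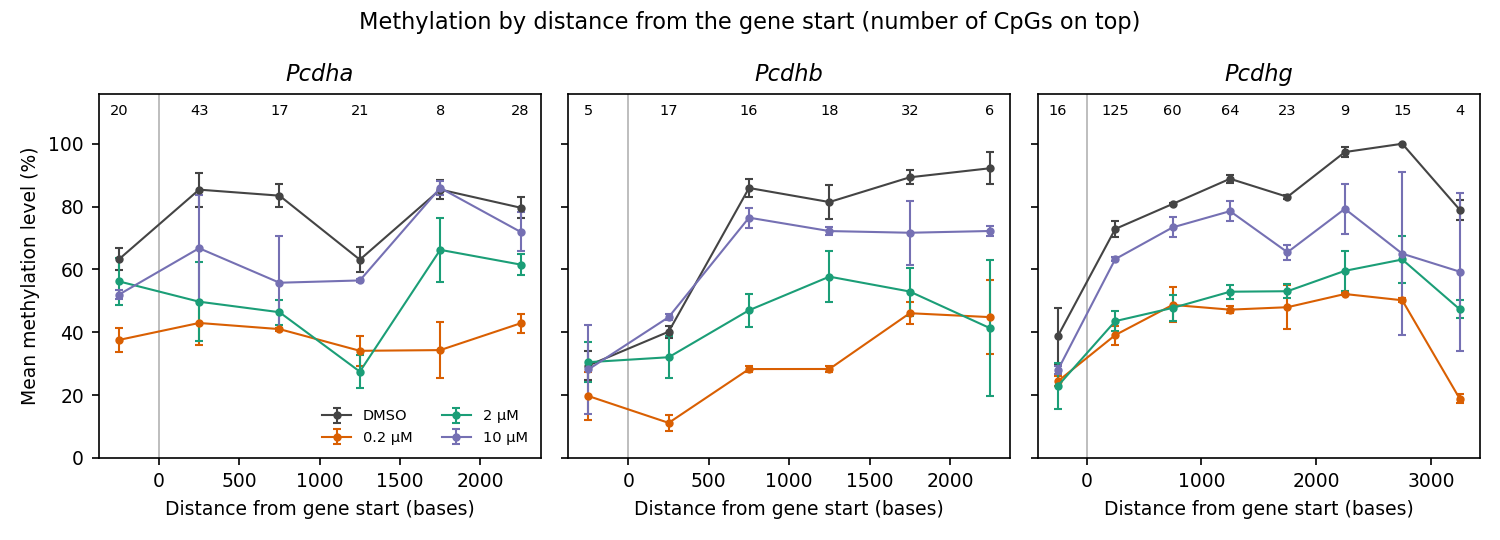
Mean methylation level in percent (vertical axis) in bins of 500 bases by distance from the gene start in bases (horizontal axis) for the 3 clusters, with the number of CpGs of each bin at the top. Points are group means joined by lines and bars are SD over the 2 or 3 libraries of a group. The Pcdhb panel rises from 29.4% before the start and 40.2% after it to 85.9% in the second bin of the gene in DMSO, with 9 of the 17 CpGs of the first bin in Pcdhb1, while the 0.2 µM line stays lowest in the bins of the Pcdhb panel up to 2000 bases.

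Single members were tested on reads summed within 1 kb of the gene start, together with all other gene-start windows of the genome. The minimum was 10 reads per window and library, met by 22 members (6 Pcdha, 5 Pcdhb and 11 Pcdhg) among 12260 windows. The test was a binomial model with dispersion moderated by limma and Benjamini-Hochberg adjustment over all windows, with a threshold of 0.05. The median DMSO level of the 22 members was 82.2%, with a range of 12.7% to 98.4%, against a median of 1.12% over all windows. All 22 members were lower in both 0.2 µM libraries than in both DMSO libraries, a pattern seen in 51.8% of all windows and in 98.8% of the 2586 windows at 50% or above in DMSO. At 2 µM this held for 19 members (35% of all windows, 95.3% of the highly methylated ones), the exceptions being Pcdhb2, Pcdhb3 and Pcdhgc3, and at 10 µM for 15 members (31.2% and 79.3%). At 10 µM, 2 members, Pcdhb2 and Pcdhgc3, had both libraries above both DMSO libraries, beside 11.8% of all windows and 1.24% of the highly methylated ones. Against 2 µM, 13 members had both 10 µM libraries above all 2 µM libraries, beside 27% of all windows and 64.3% of the highly methylated ones.

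At 0.2 µM, 13 of the 22 members passed the test, all lower (4 of 6 Pcdha, 1 of 5 Pcdhb and 8 of 11 Pcdhg), beside 20.5% of all windows and 78% of windows at 50% or above in DMSO. Of the members, 20 reached that level, and the 13 were among them. At 2 µM, 11 members passed, all lower (3, 1 and 7), beside 15.1% of all windows and 67.3% of the highly methylated ones. The members' share was thus above the share of all windows and no larger than that of windows with like DMSO levels. The median change of the members was -36.9 points for 0.2 µM, -34.3 for 2 µM and -18.0 for 10 µM, and among all windows at 50% or above in DMSO it was -33.1, -32.1 and -16.8. No member passed as higher against DMSO at any dose, by this test or by limma on the levels.

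At 10 µM no member passed, beside 0.00816% of all windows and 0.0387% of the highly methylated ones. By limma on the levels 0 members were lower, beside 3.56% of all windows. At an unadjusted p under 0.05, 7 members were lower. No share of all windows is given for the unadjusted counts in this paragraph. No member passed for 2 µM against 0.2 µM (0% of all windows) or for 10 µM against 2 µM (0%). At the unadjusted p, 1 and 9 members were higher. By limma on the levels 0 and 1 were higher, beside 0.604% and 2.87% of all windows. The loss of calls on leaving out a library was shared by the whole genome. Without DMSO replicate 1 no member and 0% of all windows passed at either dose. Without DMSO replicate 2 no member passed, beside 0% of all windows at 0.2 µM and 1.59% at 2 µM, and without either 0.2 µM library no member and 0% of all windows passed at 0.2 µM. For 2 µM, 7 members passed without 2 µM replicate 1 (10.9% of all windows) and 6 without 2 µM replicate 2 (11.5%). The 3 comparisons with DMSO share its 2 libraries. With the dispersion prior taken from windows at 10 to 90% methylation, a choice made after the first counts were seen, 18 members were lower at 0.2 µM (25.5% of all windows), 15 at 2 µM (19.6%) and 1, Pcdhga4, at 10 µM (5.23%), and Pcdhb17 was higher at 10 µM than at 2 µM (1.6%). In simulated windows with 200 changed by 1.5 on the log odds scale, the test as first designed called 29, 50 and 35 of them for 0.2, 2 and 10 µM against DMSO and no unchanged window among the 12260. With the other prior the test called 115, 121 and 121, and 4, 0 and 4 unchanged windows. All other simulated windows stayed at their DMSO level, whereas 20.5% and 15.1% of the real windows passed as lower at 0.2 and 2 µM. The simulated counts thus do not give the power of the test on the real data.

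**Figure D3:**
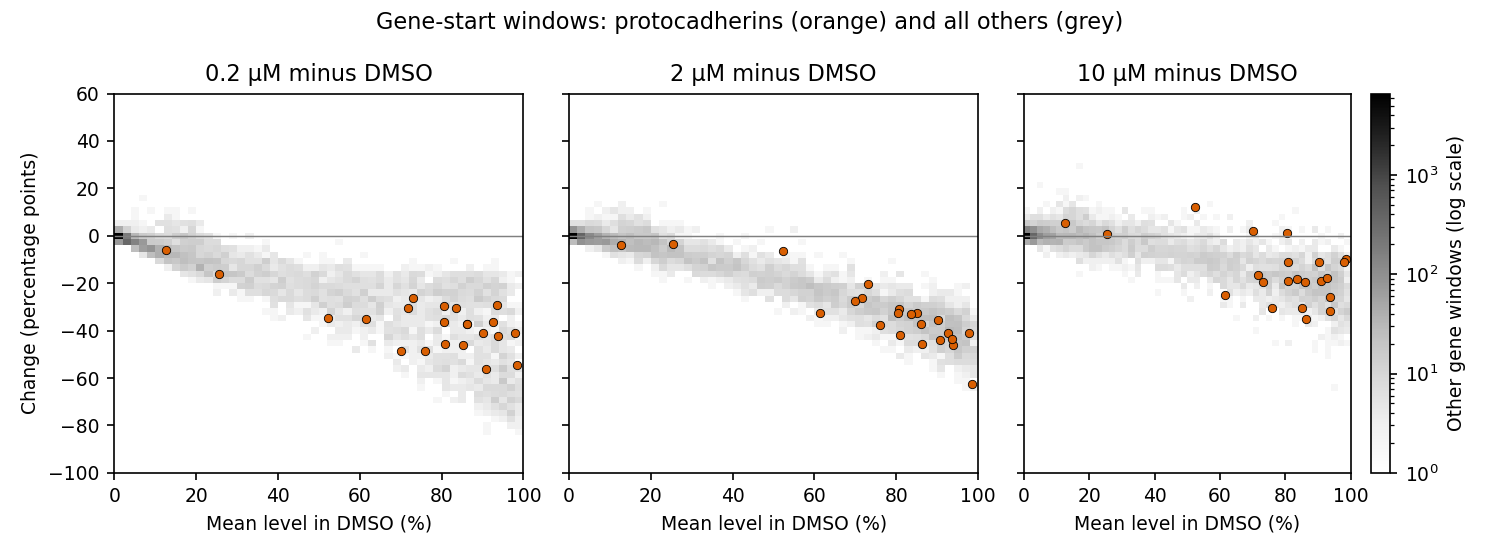
Change in methylation in percentage points (vertical axis) against the mean DMSO level in percent (horizontal axis) of gene-start windows, in 3 panels for 0.2, 2 and 10 µM minus DMSO. Orange points are the 22 clustered protocadherins and grey cells count all other windows on a log scale. The members sit mostly at the right, with medians of -36.9, -34.3 and -18.0 points, inside the cloud of other windows with like DMSO levels.

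In the Pcdha cluster, Pcdha4 had the highest DMSO level of the 6 tested windows, with 100% and 87.5% in DMSO, 56.7% and 46.3% with 0.2 µM, 33.3%, 54.2% and 54.9% with 2 µM and 68.4% and 55.6% with 10 µM over 4 CpGs. All 7 treated libraries of Pcdha4 lay below both DMSO libraries, and the window fell by 42.3 points at 0.2 µM (adjusted p = 0.0276) and by 46.3 points at 2 µM (adjusted p = 0.0265). Pcdha12 had 91.7% and 80.8% in DMSO, 39.3% and 58.3% with 0.2 µM, 43.8%, 36.0% and 42.3% with 2 µM and 57.9% and 44.4% with 10 µM over 3 CpGs. It fell at 0.2 µM (-37.4 points, adjusted p = 0.0465) and at 2 µM (-45.5 points, adjusted p = 0.0199), and the call at 0.2 µM was lost on leaving out any 1 of the 9 libraries, with adjusted p from 0.0572 to 0.287. Without DMSO replicate 1 the Pcdha4 call at 0.2 µM had an adjusted p of 0.184.

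The members Pcdha5 and Pcdha8 were less even between replicates and did not pass. Pcdha5 had 87.0% and 83.3% in DMSO and 44.9% and 32.9% at 0.2 µM (adjusted p = 0.0820), but 29.4% and 80% in the 10 µM libraries. Pcdha8 had 66.7% and 95% in DMSO and 17.2% and 53.1% at 0.2 µM (adjusted p = 0.132), and its 2 µM libraries ran from 8.33% to 61.9%. Both were read at 12 reads in the shallowest library. With the prior from windows at 10 to 90% both passed at 0.2 µM, with adjusted p of 0.0148 and 0.0224.

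The C-type Pcdhac1 lies at 37090136 to 37187657, and its start window, the most deeply read of the cluster with 123 to 365 reads per library over 36 CpGs, held 72.7% and 70.7% in DMSO and 43.5% and 38.6% with 0.2 µM. It held 49.3%, 56.1% and 31.3% with 2 µM and 48.2% and 61.8% with 10 µM, so every treated library was below both DMSO libraries. The window fell by 30.7 points at 0.2 µM (adjusted p = 0.0271) and by 26.1 points at 2 µM (adjusted p = 0.0427), and without 0.2 µM replicate 2 the first call was lost (0.165). The call at 2 µM was lost on leaving out 8 of the 9 libraries in turn, with adjusted p up to 0.263. The C-type Pcdhac2 held 72.4% and 88.9% in DMSO, 37.6% and 51.2% with 0.2 µM, 52.5%, 46.4% and 50.0% with 2 µM and 54.5% and 68.6% with 10 µM. It fell at 0.2 µM (-36.2 points, adjusted p = 0.0372, lost without DMSO replicate 2 at 0.237) and missed the threshold at 2 µM (adjusted p = 0.0594).

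In the Pcdhb cluster, Pcdhb17 (37485021 to 37488290) had the highest DMSO level of all tested members. Its start window of 6 CpGs held 96.8% and 100% in DMSO, 42.0% and 45.9% with 0.2 µM, 16.1%, 26.3% and 65.7% with 2 µM, and 92.2% and 85.4% with 10 µM. It was thus far below DMSO at 0.2 and 2 µM, with the 2 µM libraries spread widely, and close to DMSO at 10 µM, without overlap of the 10 µM libraries with either neighbour. The window fell by 54.4 points at 0.2 µM (adjusted p = 0.0268) and by 62.3 points at 2 µM (adjusted p = 0.0196), both lost without DMSO replicate 1 (0.172 and 0.175). The 52.7 points by which 10 µM exceeded 2 µM had an adjusted p of 0.280, and of 0.0203 with the prior from windows at 10 to 90%.

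Pcdhb1 (37264998 to 37267454), the first gene of the cluster, was the least methylated Pcdhb member, with 25.9% and 25.0% in DMSO, 10.1% and 8.51% with 0.2 µM, 19.3%, 23.7% and 23.4% with 2 µM and 31.0% and 21.5% with 10 µM. Only the 10 µM libraries overlapped those in DMSO, and the change of -16.2 points at 0.2 µM did not pass (adjusted p = 0.188), though it did by limma on the levels (0.0145). Pcdhb2 held 58.3% and 46.2% in DMSO, 19.4% and 15.6% with 0.2 µM, 44.8%, 48.8% and 43.3% with 2 µM and 67.7% and 61.1% with 10 µM. Its 0.2 µM libraries were the lowest of the 9 and its 10 µM libraries the highest, and neither difference from DMSO passed (adjusted p = 0.115 and 1). By limma on the levels Pcdhb2 passed at 0.2 µM with an adjusted p of 0.00429.

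Pcdhb3 held 66.7% and 73.3% in DMSO and 26.1% and 16.7% with 0.2 µM, 73.3%, 26.2% and 27.8% with 2 µM, and 57.1% and 86.7% with 10 µM. Its 2 µM replicate 1 equalled the higher DMSO library, and the change of -48.6 points at 0.2 µM missed the threshold (adjusted p = 0.0692, and 0.0386 without 2 µM replicate 1). Pcdhb13 held 63.6% and 59.3% in DMSO, 30.4% and 22.2% with 0.2 µM, 22.2%, 35.7% and 29.2% with 2 µM and 40.5% and 32.5% with 10 µM. All of its treated libraries lay below DMSO, with adjusted p of 0.0545 at 0.2 µM and 0.0710 at 2 µM, and 0.00628 at 0.2 µM by limma on the levels. It was the only tested Pcdhb member other than Pcdhb17 whose 10 µM libraries both lay below DMSO.

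In the Pcdhg cluster, Pcdhga1 (37661775), the first gene, had the widest change at 0.2 µM of all 22 start windows and was singled out for it after the values were seen. It held 87.0% and 94.4% in DMSO, 38.1% and 31.0% with 0.2 µM, 29.7%, 59.2% and 51.0% with 2 µM and 66.9% and 76.6% with 10 µM over 16 CpGs. No treated library reached the DMSO range, and the window fell by 56.2 points at 0.2 µM (adjusted p = 0.00940) and by 44.1 points at 2 µM (adjusted p = 0.0139). Pcdhga3 held 93.4% and 91.8% in DMSO, 60.3% and 52.0% with 0.2 µM, 41.8%, 55.0% and 57.8% with 2 µM and 77.1% and 72.2% with 10 µM over 13 CpGs. It fell by 36.5 points at 0.2 µM (adjusted p = 0.0188) and by 41.1 points at 2 µM (adjusted p = 0.0111), and its 10 µM libraries lay above all of those at 0.2 and 2 µM. Without DMSO replicate 1 or 2 the call at 2 µM was lost, with adjusted p up to 0.0837.

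Pcdhga4 (37685237 to 37841870) held 91.3% and 95.8% in DMSO, 67.8% and 60.8% with 0.2 µM, 44.2%, 57.2% and 48.8% with 2 µM and 77.6% and 58.2% with 10 µM over 17 CpGs. Unlike most members it was lower in all 2 µM libraries than in both 0.2 µM libraries, a difference of -14.2 points that did not pass (adjusted p = 0.594). It fell by 29.2 points at 0.2 µM (adjusted p = 0.0173) and by 43.5 points at 2 µM (adjusted p = 0.00498). Its change of -25.6 points at 10 µM had an adjusted p of 0.125, and of 0.0229 with the prior from windows at 10 to 90%. Without either DMSO library its calls were lost, with adjusted p up to 0.104 at 0.2 µM and 0.0688 at 2 µM.

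Pcdhga11 held 86.0% and 81.0% in DMSO, 51.4% and 54.3% with 0.2 µM, 47.9%, 39.6% and 63.5% with 2 µM and 68.5% and 62.2% with 10 µM, and it fell at 0.2 µM (-30.7 points, adjusted p = 0.0216) and 2 µM (-33.2 points, adjusted p = 0.0155). Pcdhgb7, the most methylated Pcdhg window, held 95.7% and 100% in DMSO, 65.2% and 48.1% with 0.2 µM, 65.5%, 57.0% and 47.9% with 2 µM and 73.3% and 100% with 10 µM. Pcdhgb7 fell at 0.2 µM (-41.2 points, adjusted p = 0.0352), and at 10 µM its libraries spanned the range from the treated values to the DMSO values. Leaving out 1 library at a time ended the 0.2 µM call of Pcdhga11 in 6 of 9 fits (adjusted p up to 0.157) and that of Pcdhgb7 in 7 of 9 (up to 0.196). The Pcdhgb7 call at 2 µM (-41.0 points, adjusted p = 0.0340) was also lost in 7 of 9 (up to 0.235).

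The remaining Pcdhg windows that passed at 0.2 µM were Pcdhga8 (adjusted p = 0.0273) and Pcdhgb4 (0.0327). Among the Pcdhga members that did not pass, Pcdhga9 held 78.3% and 67.9% in DMSO and 56.8% and 37.3% at 0.2 µM (adjusted p = 0.179). Pcdhga10 held 76.9% and 84.0% in DMSO, 59.1% and 42.6% at 0.2 µM (adjusted p = 0.0892), and 74.5% and 88.6% with 10 µM. The DMSO and 10 µM libraries of Pcdhga10 interleaved, with means of 80.5% and 81.6%.

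The C-type genes at the end of Pcdhg differed widely in level. Pcdhgc3 (37806410 to 37841873) had the least methylated start of all tested members, with 13.2% and 12.2% in DMSO, 6.07% and 7.39% with 0.2 µM, 6.37%, 6.93% and 13.3% with 2 µM and 18.2% and 17.8% with 10 µM over 46 CpGs and 303 to 766 reads per library. Its 10 µM libraries lay above both DMSO libraries and its 0.2 µM libraries below both, and neither difference passed (adjusted p = 0.805 and 0.161). Pcdhgc4, the next gene, held 95% and 85.3% in DMSO, 48.0% and 50.0% with 0.2 µM, 56.7%, 50.0% and 57.1% with 2 µM and 82.8% and 75.4% with 10 µM. The Pcdhgc4 window fell by 41.1 points at 0.2 µM (adjusted p = 0.0176, lost without DMSO replicate 1 at 0.156) and by 35.5 points at 2 µM (adjusted p = 0.0242).

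Within Pcdhgc3 and Pcdhb1 the low values lay at the start itself. Upstream of Pcdhgc3, 8 CpGs averaged 1.23% in DMSO, the first 500 bases 13.8%, the next 500 bases 65.4% and the 500 bases after that 95.7%. At 0.2 µM the same stretches averaged 0%, 1.29%, 42.2% and 42.7%. The first 500 bases of Pcdhgc3 differed between the DMSO libraries, at 5.20% and 22.5%. Both 0.2 µM libraries lay below them there, at 1% and 1.58%, with a mean change of -12.6 points near the DMSO SD of 12.2. The 2 and 10 µM libraries overlapped those in DMSO. In Pcdhb1 the first 500 bases averaged 8.80% in DMSO (17.6% and 0% in the 2 libraries) and 3.72% with 0.2 µM, and the next 500 bases 94.4% and 24.9%. Pcdhac2 ran the other way, with 82.9% in DMSO in the first 500 bases and 53.8% between 1000 and 1499 bases, and Pcdhac1 held 63.2% before its start and 85.1% after it.

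**Figure D4:**
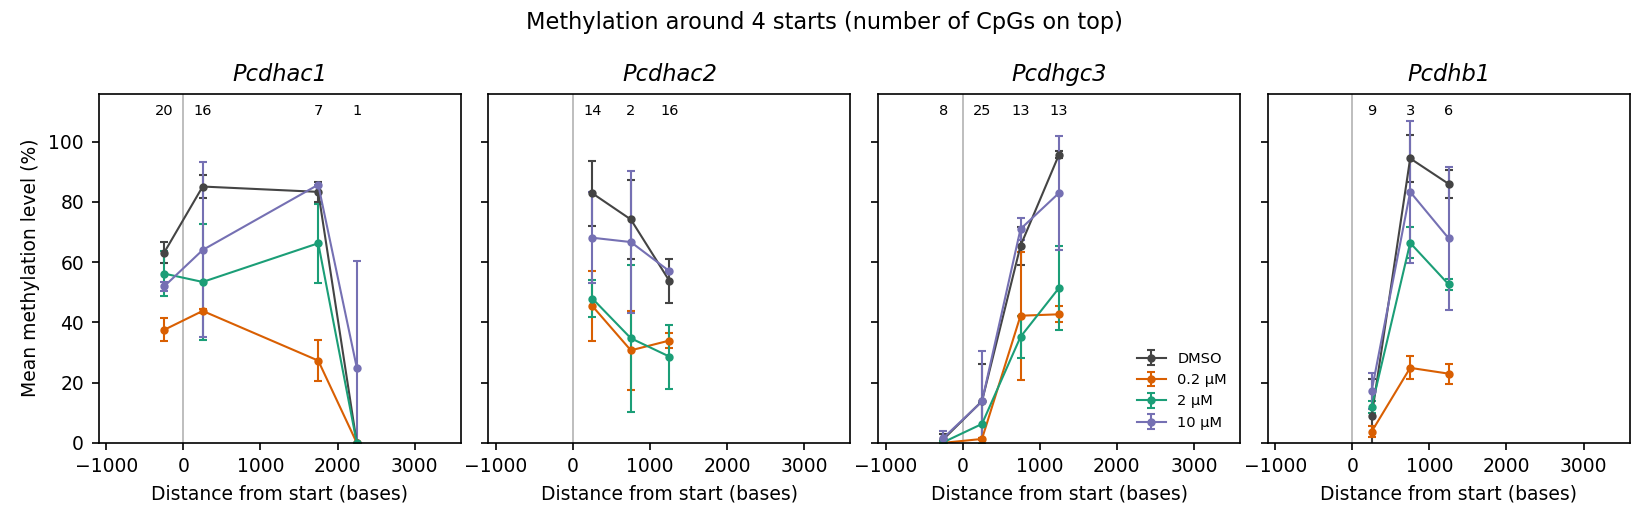
Mean methylation level in percent (vertical axis) by distance from the gene start in bases (horizontal axis) around Pcdhac1, Pcdhac2, Pcdhgc3 and Pcdhb1, in bins of 500 bases with the number of CpGs at the top. Points are group means and bars are SD over libraries. In DMSO Pcdhgc3 climbs from 1.23% before the start to 95.7% and Pcdhb1 from 8.80% to 94.4%, whereas Pcdhac2 falls from 82.9% to 53.8%.

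Reads summed over whole variable exons, a set added after the files were seen, brought the tested members to 35 (10 Pcdha, 7 Pcdhb and 18 Pcdhg). All 35 had a lower mean at 0.2 µM and at 2 µM than in DMSO. Of them, 24 passed as lower at 0.2 µM beside 20.5% of all windows, 19 at 2 µM beside 15.2%, and 0 at 10 µM beside 0.00815%. At 10 µM, 12 were lower at an unadjusted p under 0.05 by the same limma-moderated test. The share of all windows at that unadjusted p is not given. No member had a mean of 80% or above at 0.2 or 2 µM, whereas 23 did in DMSO and 2 at 10 µM. The highest DMSO level was that of Pcdhgc5, whose start window had too few reads, with 100% and 97.4% in DMSO, 47.1% and 45.5% with 0.2 µM, 60.6%, 65.7% and 65.5% with 2 µM and 58.4% and 76.4% with 10 µM. It fell by 52.4 points at 0.2 µM (adjusted p = 0.00839) and by 34.8 points at 2 µM (adjusted p = 0.0130), without overlap between DMSO and any dose.

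Pcdha7 had the widest change of the 35 exons at 0.2 and 2 µM, and Pcdhgb6 at 10 µM. Pcdha7 held 97.5% and 87.0% in DMSO, 33.3% and 26.2% with 0.2 µM, 23.8%, 14.3% and 38.3% with 2 µM and 54.5% and 52.4% with 10 µM, with changes of -62.5 points at 0.2 µM (adjusted p = 0.0103) and -66.8 points at 2 µM (adjusted p = 0.00599). Pcdhgb6 held 98.7% and 98.0% in DMSO, 54.9% and 79.8% with 0.2 µM, 55.6%, 55.7% and 54.4% with 2 µM and 58.0% and 50.0% with 10 µM. At Pcdhgb6 the 10 µM libraries lay on both sides of those at 2 µM, with a change of -44.3 points from DMSO that missed the threshold (adjusted p = 0.0697). Both exons were singled out after their values were seen. The spread between replicates of a group was of a size that bears on such cases, with a median gap between 2 libraries of 4.38 points in DMSO, 7.14 at 0.2 µM, 6.48 to 11.6 at 2 µM and 11.6 at 10 µM over the 35 exons, and a widest gap of 53.6 points at Pcdha8.

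**Figure D5:**
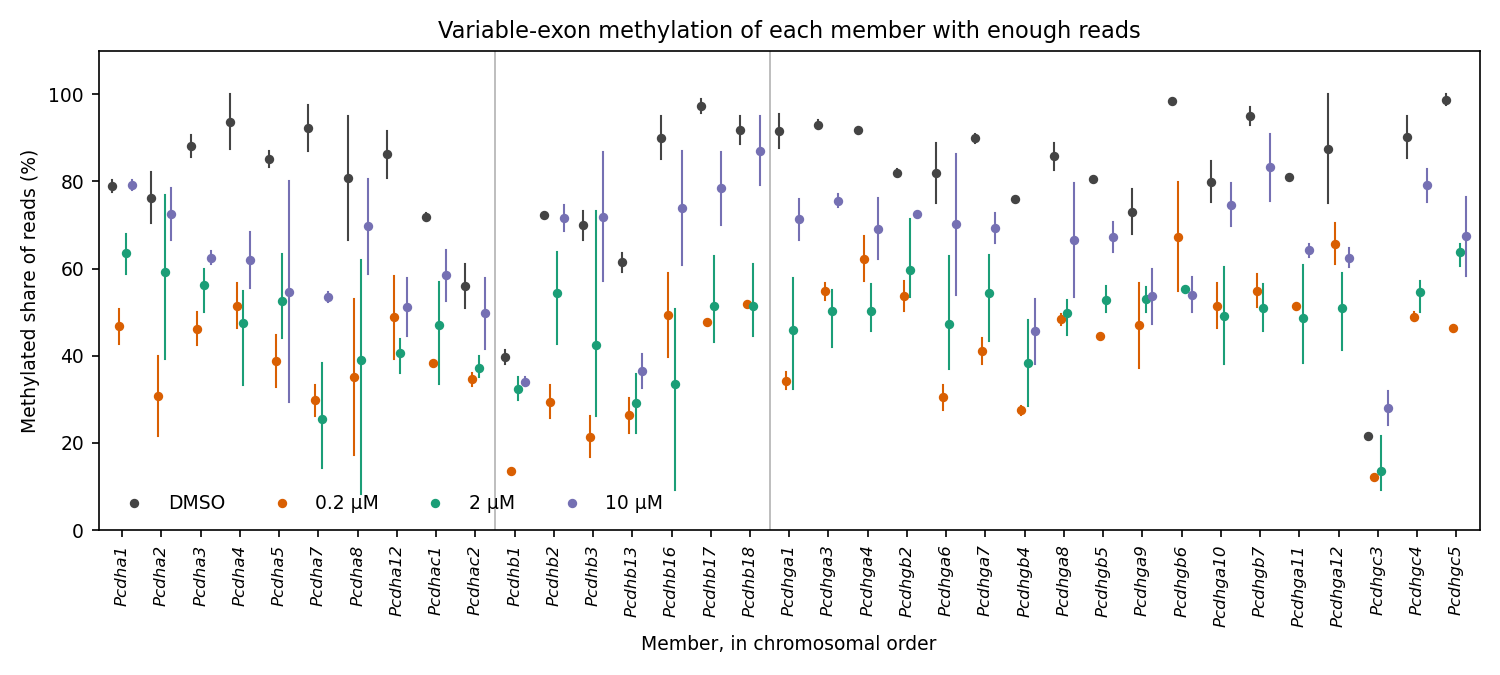
Methylated share of reads in percent (vertical axis) at the variable exons of the 35 members with at least 10 reads in every library, in chromosomal order (horizontal axis), with vertical lines between the clusters. Points are group means and bars run from the lowest to the highest library of a group. DMSO points lie above the 0.2 µM and 2 µM points of all 35 members, and Pcdhgc3 is the lowest member in DMSO at 21.6%.

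The space between the variable exons held 51.5% and 51.7% in DMSO, 20.1% and 19.9% with 0.2 µM, 31.0%, 30.5% and 30.8% with 2 µM and 43.6% and 38.7% with 10 µM, with no overlap between groups (exact permutation p = 0.000794, adjusted 0.00159). Its lower level in DMSO came with 31 CpGs near Taf7, an intronless gene for a general transcription factor subunit that lies between Pcdhb and Pcdhg. Those CpGs averaged 0.714% in DMSO and 0.617%, 0.874% and 1.44% at the rising doses. Without the CpGs near Taf7, Slc25a2 and Diaph1, the other genes of the interval, 75 CpGs averaged 72.2% ± 0.661 (SD, n = 2) in DMSO, 28.9% ± 0.175 (n = 2) with 0.2 µM, 44.2% ± 0.515 (n = 3) with 2 µM and 57.6% ± 6.20 (n = 2) with 10 µM. Weighted by reads, the space changed from DMSO by -10.2, -6.99 and -0.235 points for the rising doses, and with at least 5 reads per CpG (32 CpGs) by -4.65, -3.99 and -2.15, against -31.6, -20.8 and -10.4 unweighted. The CpGs near Taf7 were read more deeply, with library medians of 9 to 23 reads per CpG against 2 to 6 for the 75 CpGs. They held 770 of the 1222 reads of the space in DMSO replicate 1, so weighting by reads and read minimums favour them. Their part in the smaller changes was not tested. At 10 reads per CpG only 8 CpGs of the space were left, and the groups did not differ past the threshold (exact permutation p = 0.691).

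The interval held 56 tiles of 1 kb with at least 10 reads in every library. Of these, 39 were lower at 0.2 µM (53.4% of 61297 tiles of the genome), 32 at 2 µM (38%) and 0 at 10 µM (0%). At 10 µM, limma on the levels called 5 (10.9% of all tiles). At an unadjusted p under 0.05, 13 were lower at 10 µM, beside 13234 of the 61297 tiles. No tile of the interval was higher at 0.2 or 2 µM (0 at an unadjusted p under 0.05 by the same limma-moderated test), beside 0.0212% and 0.0245% of all tiles. By location, the tiles lower at 0.2 µM were 9 of 12 in Pcdha, 8 of 10 in Pcdhb, 17 of 23 in Pcdhg and 5 of 11 in the space between. Tiles at 50% or above in DMSO were lower at 0.2 µM in 86.4% of cases across the genome, and the median DMSO level of the 56 tiles was 83.2% against 64.2% for all tiles. Of 2 tiles singled out after their values were seen, the tile at 37156001 to 37157000, within the listed spans of the Pcdha genes and past the last variable exon, went from a mean of 93.8% in DMSO to 15.3% at 0.2 µM (adjusted p = 0.00706). The other, just beyond the end of Pcdhg, at 37842001 to 37843000, went from 96.2% to 20.9% (adjusted p = 0.00560). Leaving out DMSO replicate 1 reduced the 39 tiles to 4 (21.1% of all tiles), and leaving out DMSO replicate 2 to 15 (29.3%), while the fits that lacked replicate 1 or replicate 2 of the 0.2 µM group called 23 and 14 (35.5% and 34.8%). The 32 tiles at 2 µM became 0, as did those of the whole genome (0%), when either DMSO library was left out.

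Genes related to the clusters were read in the same fit. Of 12 non-clustered protocadherins, which are single genes with their own promoters, 8 had tested windows, and of their 10 windows 4 passed as lower for 0.2 µM, 1 for 2 µM and 0 for 10 µM (7, 6 and 2 at an unadjusted p under 0.05), beside 20.5%, 15.1% and 0.00816% of all windows, with a median change of -27.0 points at 0.2 µM. The windows lower at 0.2 µM were those of Pcdh18, Pcdh8 and both ends of Pcdh12. Of 17 regulators of clustered protocadherin promoters, such as Ctcf, cohesin subunits, Smchd1 and the DNA methyltransferases, 10 had tested windows, and only Tet1, a methylcytosine dioxygenase, was lower at 0.2 µM (33.8% in DMSO against 9.52%, adjusted p = 0.0175), with 0 lower at 2 and 10 µM (1 and 0 at the unadjusted p). The median change of these 10 windows was 0.165 points at 0.2 µM. Apart from Tet1 and Stag2 (18.8%), they held 3.80% or less in DMSO and so could lose little. Of 10 classical cadherins, 5 had tested windows, 3 of them lower at 0.2 µM (Cdh4, Cdh1 and Cdh2), 3 at 2 µM (Cdh4, Cdh3 and Cdh2) and 0 at 10 µM (2 at the unadjusted p). At 0.2 and 2 µM, 78% and 67.3% of all windows at 50% or above in DMSO were lower. No gene of these 3 lists passed as higher against DMSO at any dose, by the limma-moderated test. At an unadjusted p under 0.05, 1 window, of the regulators at 10 µM, was higher. The shares of all windows above belong to the adjusted test, and none is given for the unadjusted counts.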

How the data were processed

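Per-CpG methylation files were deposited for 9 libraries made with the NuGEN Ovation RRBS Methyl-Seq kit and 11 PCR cycles, per the labels' protocols. The build is mm10, per the submitters' processing notes. The aligner, caller and filters were not given in the labels or files. The authors' deposited score is the methylated share in thousandths, rounded down, and the methylated and total reads were taken from the text entry beside it, so the binomial test on reads was kept although the only numeric column is a score. CpGs with at least 1 read in all 9 libraries were used, with gene positions from RefSeq GRCm38.p6.

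Library means were compared by exact permutation tests. Windows within 1 kb of protein-coding gene starts and tiles of 1 kb, each with at least 10 reads in every library, were tested with a binomial model whose reads were scaled for correlation within a window in 5 coverage classes and whose dispersion was moderated with limma 3.58.1 (R 4.3.3), with Benjamini-Hochberg adjustment over all windows or tiles. The test was tested on simulated data. Other steps used python 3.11.15, numpy 2.4.6, scipy 1.17.1, pandas 2.3.3 and matplotlib 3.10.9. Described one by one were, in each cluster, the 4 members with the most reads in their shallowest library and those with the highest and lowest DMSO level, the C-type members, and tested members not lower at 0.2 µM. The members and lists were chosen with earlier results of these data known. Limiting windows to protein-coding genes, merging windows with the same CpGs, whole variable exons, sets without Pcdhgc3 or Pcdhb1 and the dispersion prior from features at 10 to 90% methylation were chosen after seeing the data. Alternatives covered read minimums, window size, weighting, the test, scaling, a replicate block and leaving out each library.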

Additional observations from a re-analysis of the deposited data

Results flagged for a closer look

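The excess of the clusters over the rest of the genome differed between the groups (exact permutation p = 0.00317), and it is listed here because the 2 sets of CpGs moved by different amounts under the same treatment. The excess was 39.7 and 40.7 points in the DMSO libraries, 25.0 and 22.7 with 0.2 µM, 24.2, 25.1 and 25.9 with 2 µM, and 33.0 and 37.7 with 10 µM. As a share of the DMSO level, the clusters kept 51.9% at 0.2 µM and 84.9% at 10 µM, and the rest of the genome 44.0% and 81.6%. Starting level differed between the sets, and its part in this difference was not tested.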

How the results depend on the processing

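The results changed with the read minimum, which also changes the set of CpGs used, and depth and choice of CpGs were not separated. With at least 10 reads per CpG the permutation p was 0.0960 for Pcdha (4 CpGs) and 0.691 for the space between (8 CpGs), both with a changed direction at 1 dose or more, and 0.0524 for Pcdhg (9 CpGs), and no Pcdhb CpG was left. The Pcdhb against Pcdhg difference had an exact permutation p of 0.00952 weighted by reads and 0.00476 within 1 kb of the start. Leaving out 1 library gave exact permutation p of 0.00119 to 0.0119 for Pcdha, 0.00119 to 0.00952 for Pcdhb, 0.00119 to 0.0190 for Pcdhg, 0.0286 to 0.275 for Pcdhb against Pcdhg and 0.00476 to 0.0190 for clusters against the rest. Start windows called then ranged from 0 to 13 at 0.2 µM and from 0 to 10 at 2 µM, and tiles from 4 to 38 and from 0 to 29. Over the same fits, the shares of all windows ran from 0% to 18.6% and from 0% to 13.5%. Those of all tiles ran from 21.1% to 51.9% and from 0% to 35.7%.

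Start windows called at 0.2 and 2 µM numbered 0 and 3 with at least 5 reads per CpG (4.82% and 7.85% of all windows), 2 and 4 with windows of 500 bases either side (9.81% and 9.08%), 1 and 3 against the median change of all windows (4.23% and 6.94%), and 24 and 19 over whole variable exons (20.5% and 15.2%). The falls in the first 3 settings were thus shared by all windows. With the prior from features at 10 to 90%, 1 was called at 10 µM (5.23% of all windows) and 1 for 10 against 2 µM (1.6%). The latter count was also 1 by limma on the levels (2.87%) and without scaling of reads (2.79%). Tiles called at 0.2 and 2 µM numbered 18 and 20 with at least 20 reads (43.1% and 34.2% of all tiles), 4 and 7 with at least 5 reads per CpG (35% and 26.7%) and 0 and 0 against the median change (0% each). At 10 µM they numbered 5 by limma on the levels (10.9% of all tiles), 2 without scaling (4.82%) and 7 with the prior from features at 10 to 90% (14.1%). The cause of these differences was not tested. The median log odds change of all windows was -0.49, -0.32 and -0.12 at the rising doses, and of all tiles -1.57, -1.06 and -0.54.

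No pairing by replicate number was seen, as deviations of the 12 same-numbered pairs correlated between -0.0123 and 0.00583. Counting error at so few reads per CpG could hide a pairing, so these values do not exclude one. In groups of 2 libraries the deviations mirror each other, so the 12 values are not independent. With the replicate block, 2 start windows were called at 0.2 µM (10.4% of all windows), 1 at 2 µM (4.61%) and 0 tiles at 2 µM (0% of all tiles), and the permutation p was 0.0417 for Pcdha against Pcdhb and 0.0833 for clusters against the rest.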

Other observations

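The 11 members with fewer than 10 reads in at least 1 library were not tested, and their levels rest on 1 to 5 CpGs each. All 11 had a lower mean with 0.2 µM than in DMSO. The mean of Pcdhb22, the one with the most CpGs, was 87.5% in DMSO, 49.2% with 0.2 µM, 48.1% with 2 µM and 62.0% with 10 µM (8 to 60 reads per library). Pcdhgb8, which the annotation lists as a transcribed pseudogene, had means of 93.8%, 30.1%, 72.9% and 91.4% over 4 CpGs (8 to 38 reads per library). Pcdhb15 had 100% in DMSO, 35.6% with 0.2 µM, 46.8% with 2 µM and 88.1% with 10 µM over 3 CpGs (7 to 26 reads per library).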
